A study of Mus musculus with 24 samples.

Results

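The comparison described here asks what an AAV vector carrying Mef2c changed in the nucleus accumbens of mice whose nerve had not been injured. It covers the 12 sham libraries out of 24 in the series, chosen by their labels: 6 Sham Mef2c libraries set against 6 Sham Gfp libraries. Sham Mef2c mice received AAV8-hSyn-Mef2c-Egfp in the accumbens of both hemispheres, and Sham Gfp mice received AAV8-hSyn-Egfp. All 12 libraries therefore come from tissue with an AAV8 vector, the neuronal hSyn promoter and Egfp, and no uninjected tissue was analysed here. All mice had the sham form of a tibial nerve injury operation, in which the surgeon did not touch the nerve. The mice were C57BL/6J or DBA/2J and 8 to 9 weeks old, and the labels do not say which library came from which strain, which sex or how many animals. P-values therefore measure the spread between libraries. The other 12 libraries come from mice with tibial spared nerve injury (SNI), 6 with each vector.

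MEF2C is a transcription factor of the MADS-box family that binds A/T-rich DNA. In neurons it answers to calcium entry and shapes synapse number, and in mouse microglia, the resident macrophages of the brain, it is known to restrain the response to type I interferon. The interferon system starts with sensors of foreign or misplaced nucleic acid. These sensors lead to the secretion of interferon, whose receptors activate transcription factors of the STAT family. With IRF9, STAT proteins bind the interferon-stimulated response element (ISRE), and on their own they bind the gamma-activated site (GAS). The genes switched on in this way code for antiviral effectors, antigen presentation and chemokines.

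The 7 promoter sequences shown first belong to genes of this system that were lower in Sham Mef2c, and they were chosen because they hold one of these motifs. Each stretch runs 5′ to 3′ on the strand of its gene and is taken from the RefSeq promoter table of GRCm38.p6. Capitals mark an ISRE core (TTTCNNTTTC, or GAAANNGAAA on the other strand) or, in Irf1, a GAS (TTCNNNGAA).

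Isg15 (chr4:156200867-156200916, minus strand): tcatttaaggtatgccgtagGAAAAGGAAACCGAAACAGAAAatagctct

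Ifit1 (chr19:34640765-34640814, plus strand): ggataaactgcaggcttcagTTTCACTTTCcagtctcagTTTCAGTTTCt

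Rsad2 (chr12:26456543-26456592, minus strand): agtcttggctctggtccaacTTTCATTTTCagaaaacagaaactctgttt

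Stat2 (chr10:128270256-128270305, plus strand): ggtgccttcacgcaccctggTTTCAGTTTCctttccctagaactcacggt

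Gbp2 (chr3:142620584-142620633, plus strand): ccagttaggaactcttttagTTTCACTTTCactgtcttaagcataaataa

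Gbp3 (chr3:142559979-142560028, plus strand): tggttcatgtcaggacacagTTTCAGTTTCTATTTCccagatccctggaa

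Irf1 (chr11:53769904-53769952, plus strand): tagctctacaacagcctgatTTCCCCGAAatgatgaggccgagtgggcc

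Both motifs were searched on both strands in the 250 bases before the start of each gene, overlapping matches included. Of the genes lower in Sham Mef2c, 1298 had a promoter in the table, and 119 of these (9.17%) held an ISRE core. Of the genes higher in Sham Mef2c, 5 of 230 (2.17%) held one, and over all tested genes 471 of 14315 (3.29%) did. The core stood in 9 of 10 promoters of interferon-gamma inducible GTPases and in 10 of 24 of type I interferon effectors. It stood in 3 of 17 promoters of MHC class I presentation genes and in 0 of 7 of MHC class II genes. A GAS was present in 127 of 1298 promoters of the lower genes (9.78%), in 13 of 230 of the higher genes (5.65%) and in 1054 of 14315 over all tested genes (7.36%). The MEF2 consensus was present in 1.74% of promoters of the higher genes, 2.54% of those of the lower genes and 2.38% of all. The sets also differed in base composition. The median share of G and C was 55.5% in promoters of the lower genes, 59.4% in those of the higher genes and 58.4% in all. The median number of CG pairs was 7, 14.2 and 13. The part of base composition in the motif shares was not tested. A match describes these letters only, not a bound site.

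The libraries held 28328510 to 33991197 counts in Sham Mef2c and 28924194 to 34078177 in Sham Gfp. The main axis of variation among the 12 libraries, a principal component with 55.4% of their variance, placed Sham Mef2c between -58.78 and -30.36 and 5 Sham Gfp libraries between 48.25 and 65.69. The sixth, Sham Gfp library 3, lay between the groups at -2.41. Sham Mef2c library 6 stood apart from the rest of its group for several neuronal and microglial genes, which are given below. The medium spiny neuron markers, which define striatal tissue, were present in every library, with a summed level of 6077 to 11490 CPM in Sham Mef2c and 6198 to 10570 CPM in Sham Gfp (CPM, counts scaled to the size of the library). The index numbers in the sample labels follow the groups, so any effect of library order and the vector cannot be told apart. The Y-linked gene Ddx3y lay between 72.9 and 92.3 CPM in Sham Mef2c and between 67.9 and 87.9 CPM in Sham Gfp, and Xist stayed below 0.4 CPM in all 12 libraries.

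Mef2c itself (chromosome 13, 83504034 to 83667080, mm10) is counted over its whole span, so reads from the vector and from the chromosome are not told apart. Its level in Sham Mef2c libraries 1 to 6 was 469, 125, 248, 210, 123 and 285 CPM, against 212, 179, 149, 139, 175 and 161 CPM in Sham Gfp libraries 1 to 6. Libraries 2 and 5 of the Mef2c group lay below every Sham Gfp library, libraries 1, 3 and 6 lay above every one, and the groups overlapped. The difference of mean log2 CPM was 0.379 (1.3-fold), and an exact two-sided permutation test gave p = 0.264 over its 924 assignments. Leaving out single libraries moved that p between 0.0931 and 0.53. When Sham Mef2c libraries 2 and 5 were dropped, which was decided after seeing their values, the difference was 0.785 (1.72-fold, exact two-sided p = 0.00952 over 210 assignments). In the main edgeR fit, with no library dropped, Mef2c had a log2 fold change of 0.52 (adjusted p = 0.229). No member of the MEF2 family passed that test. Mef2d had 233, 289 and 324 CPM (lowest, median and highest) in Sham Mef2c and 227, 278 and 333 CPM in Sham Gfp. Mef2a, which overlaps the more highly counted Lysmd4 and is uncertain, had 98.8, 123 and 140 CPM against 109, 130 and 142 CPM, and Mef2b had 14.3, 15.2 and 16.1 CPM against 14.0, 14.9 and 16.2 CPM.

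The level of Mef2c and the interferon genes can be set side by side in each library. The 32 type I interferon effectors summed to 343.6, 346, 338, 376.1, 386.4 and 354.4 CPM in Sham Mef2c libraries 1 to 6. In Sham Gfp libraries 1 to 6 they summed to 1139, 1965, 734.3, 1261, 1509 and 1643 CPM. Every Sham Mef2c library lay below every Sham Gfp library, and among the Sham Mef2c libraries numbers 2 and 5, which had the lowest Mef2c of all 12, held 346 and 386.4 CPM beside 338 to 376.1 CPM in the other 4.

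**Figure D1:**
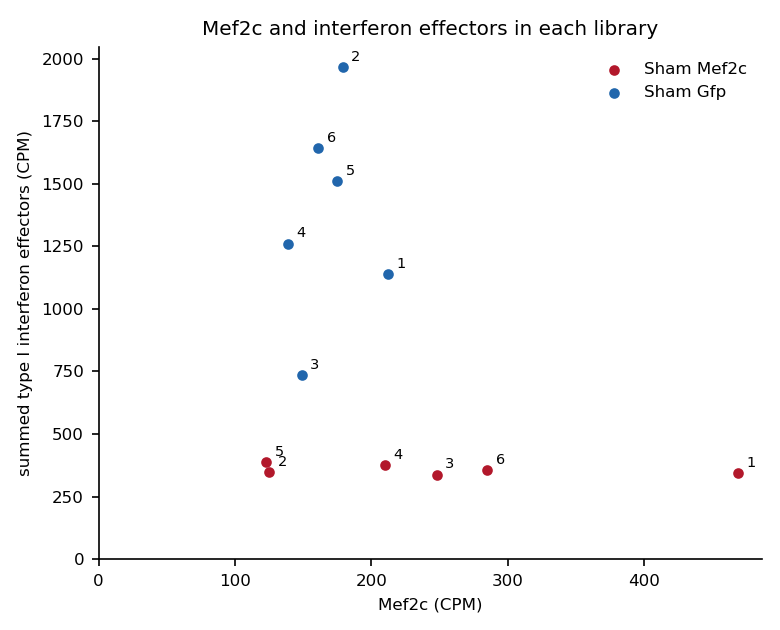
Mef2c level in CPM (x) against the summed level of 32 type I interferon effectors in CPM (y), 1 point per library, labelled with its number. The 6 Sham Mef2c points lie between 338 and 386.4 CPM of effectors at any level of Mef2c, and the Sham Gfp points between 734.3 and 1965 CPM.

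Across the transcriptome the change was lopsided: many immune genes fell by large factors, and a smaller number of mostly highly counted genes rose by little. With edgeR's quasi-likelihood test and an adjusted p under 0.05, 351 of 23738 tested genes rose (1.48%) and 1882 fell (7.93%). The log2 fold change is Sham Mef2c over Sham Gfp throughout, and n is 6 libraries in each group. It is given with a standard error (SE) derived from the test. This SE is the size of the log2 fold change divided by the square root of edgeR's F statistic. Genes whose 6 Sham Mef2c libraries all lay above the 6 Sham Gfp libraries made up 0.758% of those tested, and genes with all libraries below made up 5.21%. The median over all tested genes was 0.02. The falls had a median log2 fold change of -1.20 and 1069 of them exceeded a 2-fold change. The rises had a median of 0.19, a 13.8% increase, and 9 of them exceeded a 2-fold change. The genes that fell supplied 2.49% of all counts in Sham Mef2c and 4.68% in Sham Gfp, and the genes that rose supplied 3.03% and 2.72%.

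**Figure D2:**
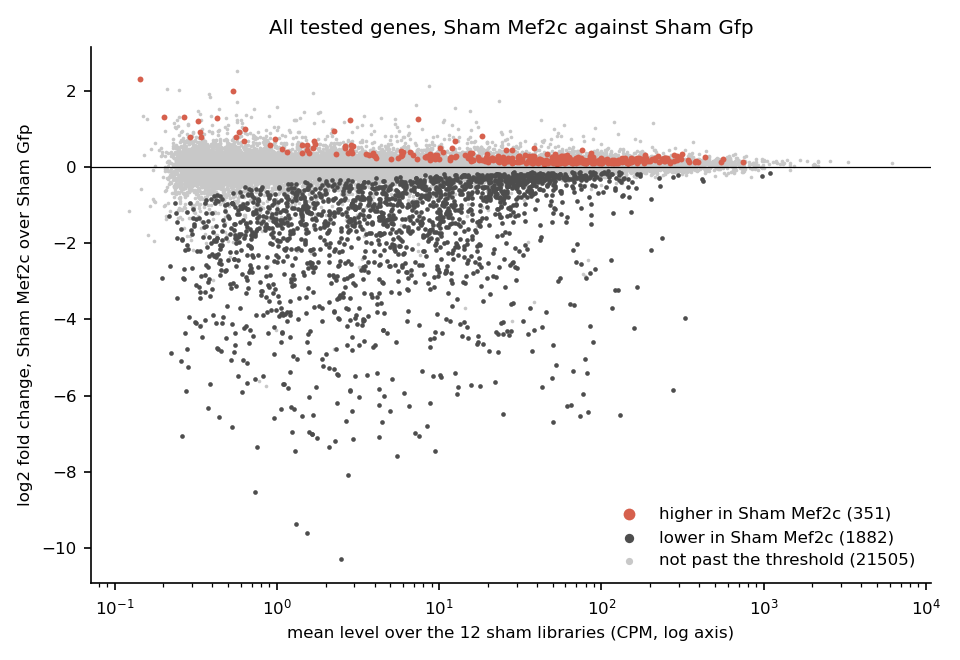
Each point is 1 of 23738 tested genes: mean level over the 12 sham libraries in CPM on a log axis (x) and log2 fold change of Sham Mef2c over Sham Gfp (y). The 351 rises hug the zero line and the 1882 falls spread down to below -10, where genes with no count in Sham Mef2c have fitted values that are not bounds.

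The count of rises depended on single libraries far more than the count of falls. Leaving out Sham Gfp library 3, the one between the groups, gave 1323 rises. Leaving out Sham Mef2c library 5 gave 224, Sham Gfp library 5 gave 132 and Sham Gfp library 6 gave 213. The number of falls stayed between 1560 and 2279 whichever library was left out. Scaling by library size alone gave 132 rises and 2069 falls, and limma-voom with quality weights gave 1846 and 2566. All 351 genes had a log2 fold change above 0 in every one of the 23 alternatives in which they were tested. Of the 351, 106 kept their call without each of the 12 libraries in turn, and 55 kept it in all 23 alternatives.

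The share of genes that rose was higher in classes with more reads. Among tested genes with a mean under 1 CPM, 0.33% rose, and the share was 0.659% from 1 to 10 CPM, 1.96% from 10 to 100 CPM and 3.97% at 100 CPM or more. The falls had no such order, with 6.95%, 11.8%, 7.12% and 2.1% in the same classes. The typical SE of the log2 fold change fell over these classes, with medians of 0.26, 0.148, 0.068 and 0.067. The called rises had median log2 fold changes of 0.93, 0.36, 0.17 and 0.17 in the same classes. Of the 351 genes, 289 (82.3%) were protein coding, compared with 69% of all tested genes, and 83 overlapped a more highly counted gene and are uncertain.

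The 15 named rises of smallest p included genes of neuronal signalling, membrane traffic and arginine methylation, and all 15 kept their call in all 23 alternatives. Nyap2, a neuronal adaptor that links tyrosine phosphorylation to phosphoinositide 3-kinase (chromosome 1, 81076950 to 81341764, mm10), had 54.2, 56.4 and 63.9 CPM (lowest, median and highest) in Sham Mef2c and 39.0, 46.2 and 50.2 CPM in Sham Gfp. The groups did not overlap, and the log2 fold change was 0.34 (SE 0.06, adjusted p = 0.000473, edgeR). Nexmif, an X-linked gene of neurite extension and neuronal migration, had 62.0, 70.0 and 72.1 CPM against 46.9, 54.9 and 60.1 CPM, again without overlap (0.33, SE 0.07, adjusted p = 0.00212). The rises amount to 26.2% for Nyap2 and 25.4% for Nexmif.

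Among genes of the secretory pathway, Ergic1, a protein that cycles between the endoplasmic reticulum and the Golgi, had 110, 113 and 118 CPM in Sham Mef2c and 92.3, 97.7 and 107 CPM in Sham Gfp (log2 fold change 0.20, SE 0.04, adjusted p = 0.000826). Dhdds, a subunit of the enzyme that makes the dolichol chain for N-glycosylation, had 60.7, 64.2 and 67.9 CPM against 55.7, 57.0 and 60.8 CPM (0.16, SE 0.03, adjusted p = 0.00192). The groups were separate for Ergic1, while for Dhdds the highest Sham Gfp library just passed the lowest Sham Mef2c library.

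Of the 22 arginine and lysine methyltransferases tested, 2 rose (9.09%, against 1.48% of all genes) and none fell. The share of all tested genes that rose was 1.96% from 10 to 100 CPM and 3.97% at 100 CPM or more. Prmt7, an arginine methyltransferase, had 41.4, 42.9 and 44.7 CPM in Sham Mef2c and 35.4, 38.4 and 39.8 CPM in Sham Gfp (log2 fold change 0.17, SE 0.03, adjusted p = 0.000864). Prmt7 overlaps the more highly counted Smpd3, so its value is uncertain. Carm1, which also methylates arginine and is known as a coactivator of MEF2C in muscle, had 81.8, 84.1 and 87.8 CPM against 76.0, 76.7 and 79.8 CPM (0.13, SE 0.03, adjusted p = 0.00154). Neither gene's groups overlapped. Carm1 was also the 1 riser among the 19 tested MEF2 co-regulators (5.26%). The rises of both lists were small, with list medians of 0.06 beside 0.02 for all tested genes.

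Several other rises of this set were equally narrow and regular. Map9, a microtubule-associated protein, had 129, 133 and 145 CPM in Sham Mef2c and 111, 119 and 127 CPM in Sham Gfp (0.19, SE 0.04, adjusted p = 0.00116). Amer3, a membrane protein that recruits APC of the Wnt pathway, had 32.4, 32.8 and 35.6 CPM against 27.5, 29.2 and 30.3 CPM (0.20, SE 0.04, adjusted p = 0.00107). Nudt10, an X-linked Nudix hydrolase, had 27.2, 29.1 and 31.4 CPM against 22.6, 24.5 and 26.4 CPM (0.25, SE 0.05, adjusted p = 0.00141). The groups were separate for these 3 genes. Zfp772, a zinc finger protein, had 0.24 on the log2 scale (SE 0.05), and Arxes1, an X-linked gene first described in mouse fat cells, had 0.34 (SE 0.07). Ankrd46 and Smim14 had 0.14 and 0.15, each with an SE of 0.03. Ntn3, a netrin, had 0.27 (SE 0.05) but lies across Tbc1d24, which has more reads.

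**Figure D3:**
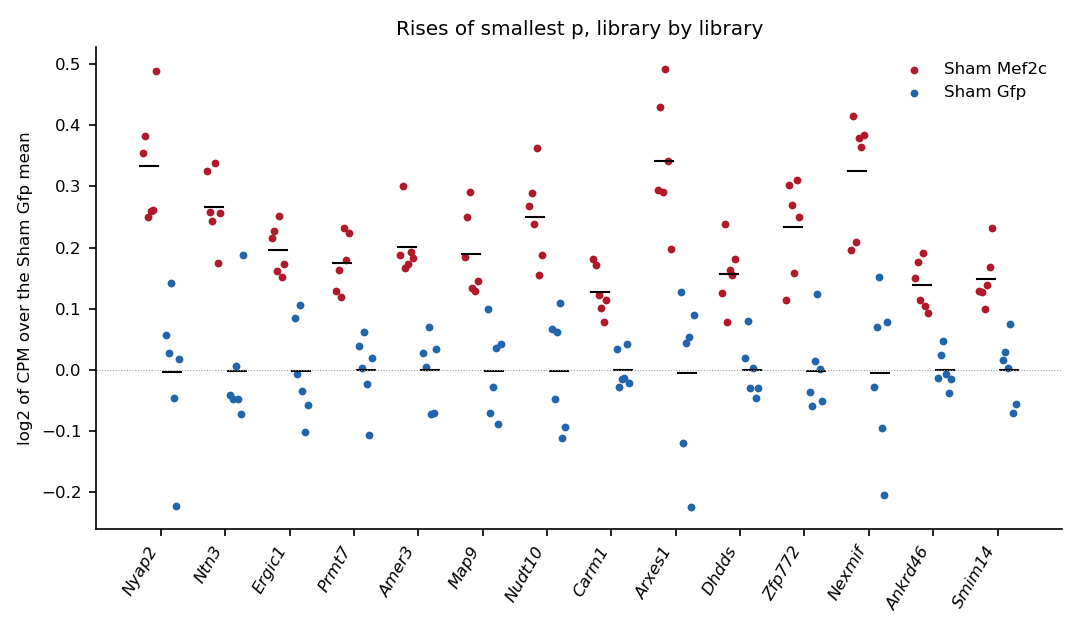
Log2 of each library's CPM over the mean of the 6 Sham Gfp libraries (y) for 14 of the 15 rises of smallest p (x), with a bar at the group mean; Fcrls is left out because its change is larger than the scale of the others. Sham Mef2c points are on the left of each pair, and for Nyap2, Ergic1, Map9 and Nexmif every one lies above every Sham Gfp point.

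A further 6 genes that held in all 23 alternatives were chosen after their values were seen, because they have known roles in neurons. Stim1, the calcium sensor of the endoplasmic reticulum, had 123, 126 and 136 CPM in Sham Mef2c and 111, 112 and 115 CPM in Sham Gfp (0.18, SE 0.04, adjusted p = 0.00516). Ubqln2, an X-linked shuttle of ubiquitinated proteins to the proteasome, had 246, 256 and 259 CPM against 208, 222 and 234 CPM (0.20, SE 0.05, adjusted p = 0.00543). Scrn1, a secernin, had 354, 368 and 380 CPM against 301, 319 and 348 CPM (0.20, SE 0.04, adjusted p = 0.00394). The 2 groups did not overlap for these 3 genes. Acsl3, which activates long-chain fatty acids, Vamp4, a SNARE protein of vesicle recycling, and Epm2a, the glycogen phosphatase laforin, had log2 fold changes of 0.22, 0.19 and 0.21, each with an SE of 0.05.

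Most of the largest rises lost their call when single libraries were left out. Of the 15 largest rises among named genes, 4 kept their call without each library in turn, among them Fcrls, which is described with the microglial genes. Rtl4, an X-linked gene derived from a retrotransposon, had 4.05, 6.34 and 31.2 CPM in Sham Mef2c and 2.44, 3.55 and 7.62 CPM in Sham Gfp (log2 fold change 1.27, SE 0.40, adjusted p = 0.0473). The highest value belongs to Sham Mef2c library 6, without which the log2 fold change was 0.54 and the adjusted p 0.256. Its call also ended without library 4 of that group or any of Sham Gfp libraries 1, 2, 4, 5 and 6. Pld5, a phospholipase D relative, had 17.4, 21.7 and 36.2 CPM against 8.32, 13.2 and 18.6 CPM (0.81, SE 0.26, adjusted p = 0.0477). Its adjusted p reached up to 0.136 and its call ended without any of Sham Mef2c libraries 2, 4 and 5 or Sham Gfp libraries 1, 4 and 5. Cntn3, a contactin of axons, had 38.7, 40.9 and 66.9 CPM against 22.8, 31.2 and 42.8 CPM (0.51, SE 0.15, adjusted p = 0.0398). Library 6 again held its highest value, and the call ended without Sham Mef2c library 5 or 6 or Sham Gfp library 1, 4 or 5 (adjusted p up to 0.111). The calls of Rtl4, Pld5 and Cntn3 also ended with a term for cortical or for septal markers in the model.

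For 3 other sizeable rises the call did not end without library 6. Cables1, an adaptor of the kinases Cdk5 and Abl, had 26.6, 30.7 and 33.2 CPM in Sham Mef2c and 18.2, 22.6 and 25.6 CPM in Sham Gfp, with no overlap (0.44, SE 0.12, adjusted p = 0.0185, and 0.0512 without Sham Gfp library 1). Kcnk12, a subunit of background potassium channels, had 8.67, 9.94 and 10.4 CPM against 6.80, 7.59 and 8.79 CPM (0.35, SE 0.09, adjusted p = 0.0110). Agbl1, an enzyme that trims glutamate from proteins such as tubulin, had 1.51, 1.84 and 2.99 CPM against 1.09, 1.32 and 1.82 CPM (0.51, SE 0.14, adjusted p = 0.0166). The value of 2.99 belongs to library 6, which stood apart from its group for Agbl1, and without it the log2 fold change was 0.36 (adjusted p = 0.0441). The groups overlapped for both genes. Kcnk12 and Agbl1 kept their calls without each library in turn. The calls of Kcnk12 and Cables1 ended with a term for septal markers in the model, and that of Agbl1 with the sham groups alone. Cables1 also lost its call without Sham Mef2c libraries 2 and 5.

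Genes of the synapse mostly had log2 fold changes above 0, but few passed and those few depended on single libraries. Of 39 synaptic adhesion genes, 4 rose (10.3%, against 1.48% of all genes and 3.97% of those at 100 CPM or more) and none fell. The median log2 fold change was 0.13, and 38 of the 39 lay above 0. Leaving out single libraries moved the 4 between 0, without Sham Gfp library 5, and 9, without Sham Gfp library 3, and the count was 1 or 2 without Sham Mef2c library 2 or 6 or Sham Gfp library 1, 2, 4 or 6. It was 8 with DESeq2, 12 with limma-voom and 0 with scaling by library size alone. With a term for cortical or for septal markers in the model it was 1. Nrxn3, a presynaptic neurexin, had 437, 457 and 605 CPM in Sham Mef2c and 363, 402 and 420 CPM in Sham Gfp, with no overlap (0.27, SE 0.08, adjusted p = 0.0376). Adgrl3, the latrophilin that meets teneurins and FLRT proteins across the cleft, had 168, 173 and 219 CPM against 136, 150 and 177 CPM (0.25, SE 0.07, adjusted p = 0.0267). Sham Mef2c library 6 was the highest for both. The call of Nrxn3 ended without Sham Mef2c library 5 or 6 or Sham Gfp library 1, 2, 4, 5 or 6 (adjusted p up to 0.1), and that of Adgrl3 without Sham Mef2c library 6 or Sham Gfp library 1, 4 or 5 (up to 0.08). Both calls also ended with the cortical term and with the septal term.

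Of 21 genes of GABA receptors and synthesis, 1 rose (4.76%, against 1.48% of all genes and 3.97% of those at 100 CPM or more). The median was 0.23 and 20 lay above 0. DESeq2 called 3 of them higher, limma-voom 11 and scaling by library size alone 0. With a cortical or a septal term in the model the count was 0. The riser was Gabbr1, a subunit of the metabotropic GABA-B receptor, with 748, 774 and 823 CPM in Sham Mef2c and 692, 709 and 733 CPM in Sham Gfp (0.14, SE 0.04, adjusted p = 0.0319). Its groups were separate, yet the call ended without any of Sham Mef2c libraries 1, 2 and 3 or Sham Gfp libraries 2, 5 and 6 (adjusted p up to 0.0812). Gad1, which makes GABA and is common to most striatal neurons, had 678, 730 and 829 CPM against 553, 614 and 853 CPM and did not pass (0.18, SE 0.14, adjusted p = 0.507). In the presynaptic list 1 of 29 rose (3.45%, against 1.48% of all genes and 3.97% of those at 100 CPM or more). The count was 10 with limma-voom and 0 with scaling by library size alone. Syn3, a synapsin of vesicle pools, had 98.9, 105 and 118 CPM against 88.6, 91.4 and 96.2 CPM (0.23, SE 0.07, adjusted p = 0.0331). Its call ended without Sham Mef2c library 3 or 6 or Sham Gfp library 1, 2 or 5 (adjusted p up to 0.0734). The call of Syn3 also ended with a cortical or a septal term. Of 20 postsynaptic scaffolds, 24 glutamate receptors, 40 potassium channels and 30 sodium, calcium and HCN channels tested, none passed in either direction with edgeR (1, 3, 2 and 2 had an unadjusted p under 0.05), and limma-voom called 5 glutamate receptors, 3 potassium channels and 4 of the other channels higher.

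Targets and partners of MEF2 in neurons barely entered the lists of changed genes. Of 24 neuronal MEF2 targets none passed in the main edgeR fit, with a median log2 fold change of -0.08. Of these, 2 had an unadjusted p under 0.05, and limma-voom called 2 lower. With edgeR, 1 was lower with the sham groups alone or without Sham Gfp library 3. In turn, 1 was higher with a term for cortical or septal markers in the model. Arc, a synaptic regulator and MEF2 target, had 23.8, 31.9 and 56.8 CPM in Sham Mef2c and 25.3, 33.1 and 93.9 CPM in Sham Gfp (-0.44, SE 0.40). Of 28 immediate early and activity-induced genes, 1 rose (3.57%, against 1.48% of all genes) and none fell with edgeR. In this list 5 had an unadjusted p under 0.05, the median was -0.28 and 3 lay above 0. The number called lower was 2 with scaling by library size alone, with DESeq2 or without Sham Gfp library 3, 3 with limma-voom or with the sham groups alone, and 1 without Sham Mef2c library 3. The riser was Vgf, a neuropeptide precursor, with 206, 238 and 241 CPM against 179, 196 and 224 CPM (0.24, SE 0.07, adjusted p = 0.0246), whose call ended without Sham Mef2c library 1, 2 or 6 or Sham Gfp library 2 (adjusted p up to 0.0717). That call also ended with a septal term. Fos, the reporter of recent neuronal activity, had 3.93, 8.49 and 16.3 CPM against 4.43, 9.94 and 24.9 CPM, and Nr4a1 had 36.7, 38.3 and 83.9 CPM against 32.9, 41.5 and 94.8 CPM. Both sets of libraries spread over the same range.

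Regulators of chromatin and RNA held 3 rises and 2 falls. Of 25 chromatin remodellers tested 1 rose and 1 fell (4% each, against 1.48% and 7.93% of all genes), and none rose without any of Sham Mef2c libraries 1 to 5 or Sham Gfp libraries 2, 5 and 6. Among all tested genes at 100 CPM or more, 3.97% rose. Of 32 splicing factors and neuronal RNA-binding proteins 2 rose (6.25%) and 1 fell (3.12%), and 1 or 0 rose without any library other than Sham Gfp library 3. Nova2, a neuronal splicing regulator, had 119, 137 and 159 CPM against 117, 119 and 126 CPM (0.19, SE 0.05, adjusted p = 0.0205), and its call ended without Sham Mef2c library 6 or Sham Gfp library 5 (adjusted p up to 0.0665).

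Transcripts of the mitochondrial genome, which code for subunits of the respiratory chain and ATP synthase, all had log2 fold changes above 0. Of the 13, 5 rose (38.5%), with a list median of 0.21. Leaving out Sham Mef2c library 4, Sham Gfp library 5 or Sham Gfp library 6 left 1, leaving out Sham Mef2c library 3 or 6 left 2, and leaving out Sham Mef2c library 1 left 3. mt-Co2, a core subunit of cytochrome c oxidase, had 53.8, 58.8 and 61.9 CPM in Sham Mef2c and 37.1, 50.8 and 57.7 CPM in Sham Gfp (0.28, SE 0.08, adjusted p = 0.0296), and its call ended without Sham Mef2c library 3, 4 or 6 or Sham Gfp library 5 or 6 (adjusted p up to 0.0961). mt-Atp8 held without each library in turn (0.39, SE 0.09, adjusted p = 0.00656) but shares reads with mt-Atp6. Of 33 nuclear genes of oxidative phosphorylation, 1 rose (3.03%, against 1.48% of all genes and 3.97% of those at 100 CPM or more) and none fell. None rose without any of the 6 Sham Mef2c libraries or of Sham Gfp libraries 1, 4, 5 and 6. None of 20 genes of cholesterol synthesis, 18 clock genes, 34 genes of striatal G protein signalling and 27 genes of axon and cytoskeleton passed in either direction with edgeR, and 0, 2, 7 and 3 had an unadjusted p under 0.05. With limma-voom, 8 of the G protein signalling genes and 7 of the axon genes were called higher. Leaving out Sham Gfp library 3 raised many of these counts: to 7 nuclear genes of oxidative phosphorylation, 5 of G protein signalling, 4 presynaptic genes, 3 GABA genes, and 2 each of the MEF2 co-regulators, potassium channels, chromatin remodellers and axon genes.

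By name family, 14 of 375 tested Zfp genes (3.73%), which code for zinc finger proteins, rose, beside 1.48% of all genes. So did 3 of 16 Prr genes (18.8%) and 4 of 75 Ppp genes (5.33%), of protein phosphatases. Of the Ube genes, which code for ubiquitin-conjugating enzymes and relatives, 3 of 40 rose (7.5%). These families were picked because at least 3 members rose, so their shares are a description and not support. Ube2d2a, a ubiquitin-conjugating enzyme, had 46.7, 51.1 and 52.9 CPM in Sham Mef2c and 40.5, 44.7 and 48.7 CPM in Sham Gfp (0.17, SE 0.04, adjusted p = 0.00680). By chromosome, the X carried 29 rises among 797 tested genes (3.64%) and a median log2 fold change of 0.08, the highest median of the 20 chromosomes from 1 to 19 and X. Genes of the X supplied 3.38%, 3.54% and 3.74% of counts (lowest, median and highest) in Sham Mef2c and 3.19%, 3.36% and 3.56% in Sham Gfp, so the groups overlapped.

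Markers of neighbouring tissue were read beside these rises, since a punch can include tissue around the accumbens. The list of 17 cortical glutamatergic markers holds Mef2c, the gene of the vector. Its other 16 members summed to 362.4, 423.5 and 617.4 CPM (lowest, median and highest) in Sham Mef2c and 368.5, 512.8 and 911.3 CPM in Sham Gfp, with a median log2 fold change of -0.65. The cortical marker Slc17a7, a vesicular glutamate transporter, had 2.37, 7.14 and 75.9 CPM against 8.50, 107 and 318 CPM (-2.43, SE 1.39, adjusted p = 0.338). The 12 septal markers summed to 341.2, 359.1 and 503 CPM against 343.8, 357.2 and 368.9 CPM (median 0.39), and Zic1, one of them, had 27.7, 48.9 and 95.5 CPM against 25.4, 32.7 and 42.5 CPM (0.68, SE 0.25, adjusted p = 0.101). None of either list passed in the main edgeR fit (1 of the 16 cortical and 5 septal markers had an unadjusted p under 0.05). Limma-voom called 2 cortical markers lower and 1 septal marker in each direction. With edgeR, 1 cortical marker was lower with the sham groups alone, with a septal term or without Sham Mef2c library 4. For the septal list, 1 marker was lower without Sham Mef2c library 2 or without libraries 2 and 5. With a septal term 1 was lower too, but that term is the mean of these same markers. That count therefore does not inform on the list. Zic1 was called higher without Sham Mef2c library 6 (edgeR adjusted p = 0.0339). With a term for the cortical markers other than Mef2c in the model 272 genes rose, 179 of them among the 351, and with a term for the septal markers 239 rose, 133 of them among the 351. The 8 tested markers of ventral pallidum, thalamus and hypothalamus summed to 75.01 to 215.1 CPM against 45.85 to 181.1 CPM. The part of neighbouring tissue in the rises was not tested beyond these fits.

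Markers of the accumbens neurons themselves did not pass. None of 18 medium spiny neuron markers, 9 direct pathway markers, 8 indirect pathway markers and 13 interneuron markers passed in the main edgeR fit. Their medians were -0.01, -0.02, -0.06 and 0.23. Limma-voom called 1 of the first and 1 of the second list higher, and edgeR with the sham groups alone called 1 of the first list higher. At an unadjusted p under 0.05 the 4 lists had 0, 1, 1 and 0 members. Ppp1r1b, the dopamine-regulated phosphatase inhibitor DARPP-32, had 291, 479 and 627 CPM in Sham Mef2c and 286, 489 and 599 CPM in Sham Gfp (-0.02, SE 0.22). The dopamine receptors Drd1 and Drd2 had log2 fold changes of -0.05 (SE 0.30) and -0.06 (SE 0.25). These errors leave room for changes of the size of the typical rise.

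**Figure D4:**
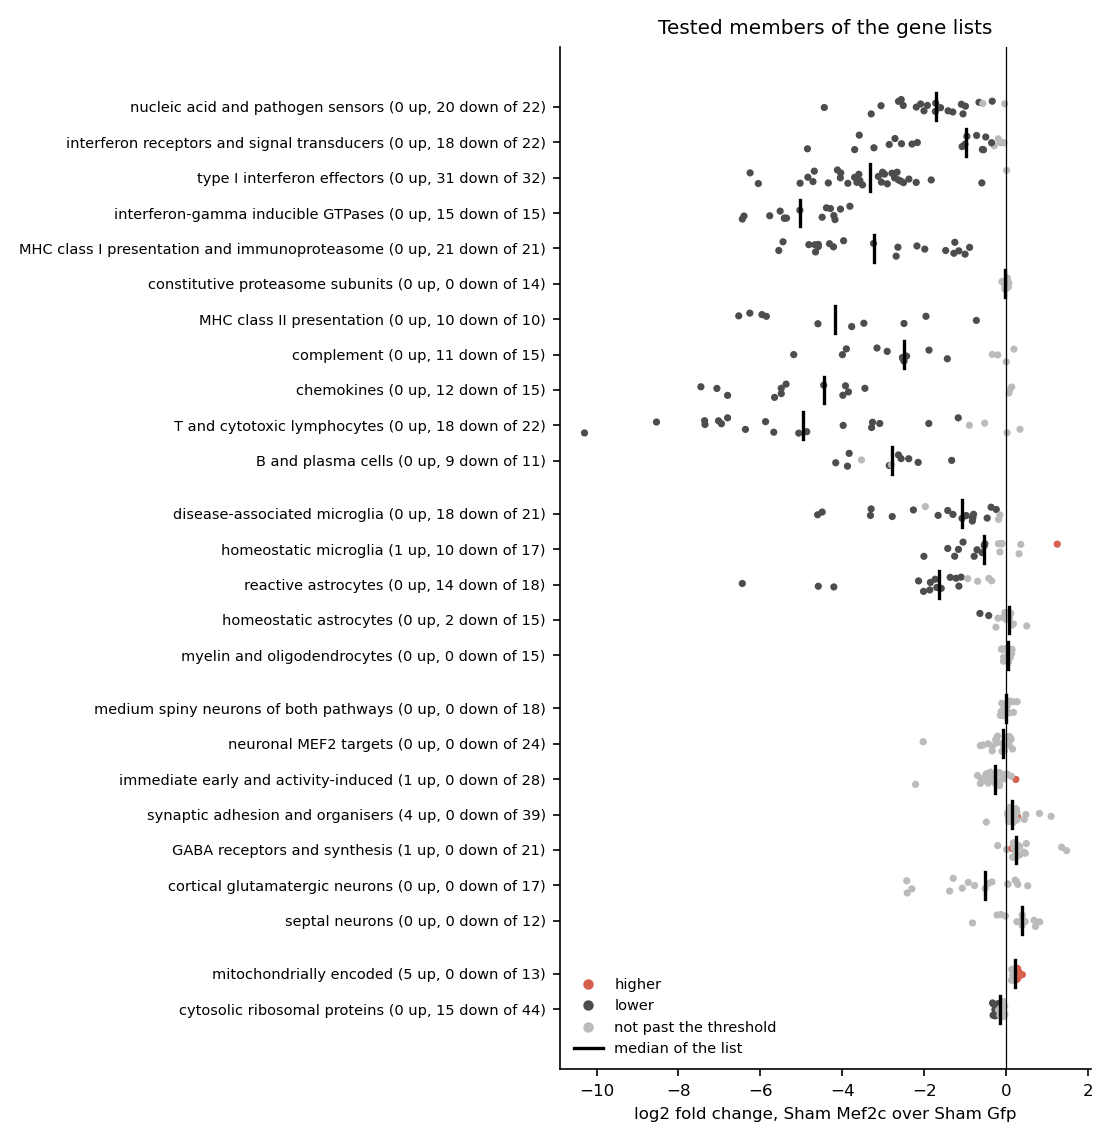
Log2 fold change of Sham Mef2c over Sham Gfp (x) for the tested members of 25 gene lists (rows), coloured by their call, with a bar at each list's median. Immune lists reach down to -10, where Cd8a and Gzmb have no count in Sham Mef2c and their fitted values are not bounds, while neuronal lists lie around 0; the cortical list includes Mef2c.

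The sensors that start the interferon response were lower. Of 22 tested sensors of nucleic acid and pathogens (23 listed), 20 fell (90.9%, against 7.93% of all genes) and none rose, with a median log2 fold change of -1.73. Some genes of this and the following immune lists entered the test through the Gfp groups alone because they had few reads with Mef2c, so these counts describe the lists and are not support on their own. Ddx58, which codes for the RNA sensor RIG-I, had 5.05, 6.18 and 7.06 CPM in Sham Mef2c and 15.1, 29.0 and 37.2 CPM in Sham Gfp (-2.20, SE 0.30, adjusted p = 0.000161). Ifih1, the RNA sensor MDA5, had 1.69, 2.17 and 2.47 CPM against 8.34, 21.7 and 29.9 CPM (-3.30, SE 0.48, adjusted p = 0.000161). The endosomal receptors Tlr3 and Tlr7 fell less, by 1.06 (SE 0.16) and 2.09 (SE 0.31) on the log2 scale, and Tmem173, the DNA-sensing adaptor STING, fell by 1.73 (SE 0.24). In all 5 genes no library of one group reached the range of the other.

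Among 22 interferon receptors and signal transducers, 18 fell (81.8%, against 7.93% of all genes) and none rose. The receptor subunits Ifnar2 and Ifngr1 fell by 0.56 (SE 0.11) and 0.58 (SE 0.11) on the log2 scale. Jak1, the kinase bound to both receptors, had 143, 151 and 154 CPM in Sham Mef2c and 146, 157 and 159 CPM in Sham Gfp and did not pass (-0.05, SE 0.04, adjusted p = 0.498). Stat2, which is activated at the type I receptor, had 21.9, 24.3 and 27.4 CPM against 54.0, 108 and 160 CPM (-2.17, SE 0.30). Irf9, its DNA-binding partner, fell by 2.30 (SE 0.31), but it shares reads with Rnf31 and is uncertain. Stat2, which interferon itself induces, fell by more than the receptor subunits.

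Of 32 type I interferon effectors 31 fell (96.9%, against 7.93% of all genes), with a median of -3.32, and Adar did not pass. All 31 fell without overlap between the groups, where 5.21% of all genes had such groups. Ifit3, which binds viral RNA, had 3.06, 4.31 and 6.29 CPM in Sham Mef2c and 25.3, 54.9 and 79.2 CPM in Sham Gfp (-3.57, SE 0.49, adjusted p = 0.000161). Rsad2, the antiviral enzyme viperin whose ISRE is printed above, had 1.87, 2.52 and 3.63 CPM against 8.07, 19.2 and 21.3 CPM (-2.66, SE 0.37). Eif2ak2, the kinase PKR that stops translation on double-stranded RNA, had 9.80, 10.9 and 13 CPM against 26.5, 51.7 and 76.0 CPM (-2.20, SE 0.29). Mx1 fell by 4.72 (SE 0.64) and Ddx60, a helper of RIG-I, by 4.09 (SE 0.54). Rnf213, a very large ubiquitin ligase with antimicrobial activity, had 16, 19.2 and 20.5 CPM against 57.2, 146 and 202 CPM (-2.91, SE 0.38). Cmtm6, which stabilises the checkpoint ligand PD-L1, fell by a smaller factor, with 25.7, 27.1 and 28.5 CPM against 36.1, 41.8 and 50.1 CPM (-0.63, SE 0.08). Ddx60, Rnf213 and Cmtm6 are not among the 32 listed effectors. Ifit3, Rsad2 and Eif2ak2 were still counted in all 6 Sham Mef2c libraries.

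The GTPases that interferon-gamma induces, which attack the vacuoles of intracellular parasites, changed more. All 15 fell without overlap (5.21% of all genes had such groups), with a median of -5.04. Their summed level was 34.95, 39.99 and 49.72 CPM in Sham Mef2c and 523.8, 991.7 and 2035 CPM in Sham Gfp. Iigp1 (chromosome 18, 60376027 to 60392634, mm10) had 1.02, 1.55 and 3.35 CPM against 75.7, 144 and 308 CPM (-6.44, SE 1.05, adjusted p = 0.00022). Irgm1, a regulator of the family, had 7.4, 8.68 and 11.4 CPM against 87.8, 150 and 270 CPM (-4.18, SE 0.64). Gbp2 and Gbp5, guanylate-binding proteins, fell by 4.21 (SE 0.70) and 4.29 (SE 0.66). By name family, 10 of 10 tested Gbp genes, 17 of 18 Ifi genes, 9 of 10 Tlr genes and 10 of 14 Ccl genes fell, beside 7.93% of all genes. These families were picked for their many falls, so the shares are a description.

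Antigen presentation fell in both classes. Of 21 genes of MHC class I presentation and the immunoproteasome all 21 fell (against 7.93% of all genes), with a median of -3.24. Tap1, a subunit of the peptide transporter into the endoplasmic reticulum, had 3.06, 3.77 and 4.50 CPM in Sham Mef2c and 42.3, 85.5 and 171 CPM in Sham Gfp (-4.67, SE 0.73, adjusted p = 0.000172). H2-K1, a class I heavy chain, fell by 4.22 (SE 0.64), although near-identical class I genes can share its reads. The immunoproteasome gave a contrast within 1 complex. Its subunit Psmb8 had 0.765, 1.38 and 2.16 CPM against 16.3, 31.2 and 56.7 CPM (-4.59, SE 0.73), while Psmb5, the constitutive subunit that Psmb8 replaces, had 19.7, 20.6 and 21.5 CPM against 18.8, 20.4 and 21.5 CPM (0.02, SE 0.05, adjusted p = 0.869). None of the 14 constitutive subunits passed with edgeR (median -0.02), and 1 was called lower with the septal term or without Sham Mef2c libraries 2 and 5.

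All 10 genes of MHC class II presentation fell (against 7.93% of all genes), with a median of -4.18. H2-Ab1 (chromosome 17, 34257689 to 34269419, mm10), a class II beta chain, had 1.15, 1.67 and 5.76 CPM in Sham Mef2c and 61.4, 135 and 283 CPM in Sham Gfp (-5.96, SE 1.11, adjusted p = 0.000733). Cd74, the invariant chain that guides class II molecules, had 2.60, 6.56 and 27.2 CPM against 285, 543 and 932 CPM (-5.85, SE 1.14, and -6.51 without Sham Mef2c library 6). Ciita, the master regulator of class II genes, fell by 1.96 (SE 0.40), but shares reads with Dexi.

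Complement, the cascade that tags cells and synapses for removal, was lower for 11 of 15 genes (73.3%, against 7.93% of all genes), with a median of -2.50. C4b had 27.3, 33.0 and 43.4 CPM in Sham Mef2c and 185, 302 and 439 CPM in Sham Gfp (-3.15, SE 0.49, adjusted p = 0.000172). C3, the central component, had 0.931, 1.74 and 7.75 CPM against 10.6, 85.3 and 185 CPM (-5.19, SE 1.06), and the value of 10.6 belongs to Sham Gfp library 3. C1qb fell by 2.49 (SE 0.38). The other 4, among them the inhibitors Cd59a and Cd46 and the component C2, did not pass.

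**Figure D5:**
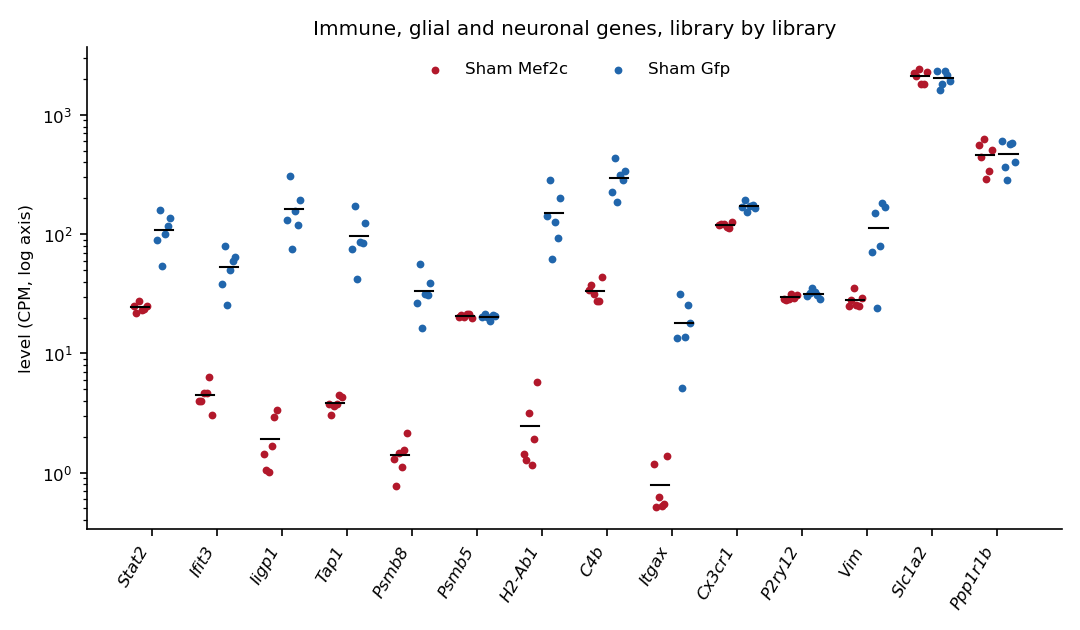
CPM on a log axis (y) of 14 immune, glial and neuronal genes (x) in each sham library, with a bar at the group mean and Sham Mef2c on the left of each pair. Stat2, Ifit3, Iigp1, Tap1, Psmb8, H2-Ab1 and C4b are separated by wide gaps, Cx3cr1 by a narrow one, and Psmb5, P2ry12, Slc1a2 and Ppp1r1b overlap.

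Microglial identity genes fell by less than a 2-fold change on the whole, and not uniformly. Of 17 homeostatic markers 10 fell (58.8%, against 7.93% of all genes) and 1 rose (5.88%, against 1.48%), with a median of -0.54. In bulk tissue, fewer cells of a type and less RNA per cell cannot be told apart. Cx3cr1, the fractalkine receptor, had 112, 121 and 126 CPM in Sham Mef2c and 152, 171 and 194 CPM in Sham Gfp (-0.52, SE 0.08, adjusted p = 0.000199). Csf1r, the receptor on which microglia depend for survival, had 84.4, 92.9 and 113 CPM against 169, 194 and 273 CPM (-1.17, SE 0.17), and Sall1, a transcription factor of microglial identity, fell by 0.59 (SE 0.09). P2ry12, the purinergic receptor of surveying microglia, had 28.3, 29.0 and 31.2 CPM against 28.6, 31.7 and 35.5 CPM and did not pass (-0.11, SE 0.05, adjusted p = 0.226), and it shares reads with Med12l. Fcrls, a receptor gene typical of mouse microglia, moved the other way, with 3.37, 4.03 and 4.47 CPM against 1.28, 1.53 and 2.35 CPM (1.25, SE 0.26, adjusted p = 0.00238).

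Genes of activated microglia and of myeloid cells fell further. Of 21 disease-associated microglia genes 18 fell (85.7%, against 7.93% of all genes, median -1.08). Among them, Cst7 fell by 4.60 (SE 0.76), Itgax by 4.49 (SE 0.75), Trem2 by 1.43 (SE 0.22) and Axl by 1.08 (SE 0.17). Apoe, which astrocytes also express, fell by 0.24 (SE 0.06). Of 19 tested Fc receptor and myeloid surface genes 17 fell (median -2.15). Fcgr1, the high-affinity receptor for antibodies, had 2.42, 2.83 and 3.53 CPM in Sham Mef2c and 9.76, 18.5 and 28.9 CPM in Sham Gfp (-2.70, SE 0.37, adjusted p = 0.000161). Fcgr4 fell by 5.56 (SE 0.97) and the integrin Itgb2 by 2.55 (SE 0.39).

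Signals that draw and hold leukocytes fell as well. Of 15 tested chemokines 12 fell (80%, against 7.93% of all genes, median -4.46), and Cx3cl1, Cxcl12 and Cxcl14, which resting brain tissue makes, did not pass. Cxcl9, a chemokine for T cells, had 0, 0.0462 and 0.468 CPM in Sham Mef2c and 2.54, 17 and 38.1 CPM in Sham Gfp (-7.45, SE 1.33, adjusted p = 0.000468, and -8.79 without Sham Mef2c library 6). Ccl5 fell by 6.80 (SE 1.05), and Cxcl10, which shares reads with Art3, by 7.06 (SE 1.16). Of 20 tested genes of the interleukin-1 and TNF systems 17 fell (median -1.64): Casp1, the inflammasome protease, had 1.05, 1.37 and 1.75 CPM against 4.93, 7.43 and 13.1 CPM (-2.61, SE 0.38), and Il1b fell by 2.62 (SE 0.52). Of 11 tested leukocyte adhesion genes 10 fell (median -1.74), with Icam1 at -2.61 (SE 0.44) and Vcam1 at -1.52 (SE 0.29).

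Several lymphocyte transcripts had few or no counts with Mef2c, while others, such as Cd4, were counted in every library. Of 22 tested T and cytotoxic lymphocyte genes 18 fell (81.8%, against 7.93% of all genes). Of these, 15 fell without overlap, where 5.21% of all genes had such groups. The list summed to 55.81 to 73.43 CPM in Sham Mef2c and 67.03 to 189.4 CPM in Sham Gfp, and the low end of Sham Gfp, its library 3, lay inside the Sham Mef2c range. Cd8a, the coreceptor of cytotoxic T cells, had 0 counts in the 6 Sham Mef2c libraries together and 956 in the 6 Sham Gfp libraries, at least 308-fold lower by a floor of 3 counts over the group. Sham Gfp library 2 held 428 of these counts, and the other 5 gave a bound of 203-fold. Gzmb, a granule protease, had 0 against 284 counts, at least 91.6-fold lower (68.4-fold without Sham Gfp library 2). Cd3e, part of the signalling unit of the T cell receptor, had 3 against 478 counts, a ratio of 154 (95% interval 52.4 to 750), and Prf1, the pore-forming protein, had 1 against 294, a ratio of 284 (50.6 to 11300). Without Sham Gfp library 2 these ratios were 116 and 213. The intervals and floors cover counting error only. Cd4 did not pass (-0.53, SE 0.28, adjusted p = 0.3), and its 8.70 to 28.2 CPM in Sham Mef2c overlapped its 14.2 to 39.7 CPM in Sham Gfp.

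Of 11 B and plasma cell genes 9 fell (81.8%, against 7.93% of all genes, median -2.80). Groups did not overlap for 2 of the genes (5.21% of all genes had such groups). The count was 4 without Sham Mef2c libraries 2 and 5 or when a gene needed 1 CPM in 6 libraries. The list summed to 9.503 to 14.42 CPM in Sham Mef2c libraries 1 to 5 and to 157 CPM in library 6, against 78.97 to 696.6 CPM in Sham Gfp, so library 6 lay within the Sham Gfp range. The antibody chain Ighm had 7.01, 7.64 and 10.0 CPM against 16.8, 40.4 and 98.2 CPM (-2.57, SE 0.68, adjusted p = 0.0160), and its call ended with the septal term (adjusted p = 0.055) and without Sham Mef2c libraries 2 and 5 (0.0819). Of all genes, 72 had no count in Sham Mef2c and at least 30 in Sham Gfp, and 0 had the opposite. Among them were the kappa light chain segments Igkj2, with 505 Sham Gfp counts, and Igkv5-48, with 569. These segments were chosen after their values were seen; Sham Gfp library 1 held 301 of the Igkj2 counts, and Sham Gfp library 4 held 259 of the Igkv5-48 counts.

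Most reactive astrocyte genes fell, and 2 homeostatic astrocyte genes fell by smaller factors. Of 18 reactive astrocyte genes 14 fell (77.8%, against 7.93% of all genes), with a median of -1.64. Of these, 6 fell without overlap, where 5.21% of all genes had such groups. Among these 6 are Gbp2, Iigp1 and Psmb8, which were already counted in the interferon-gamma GTPase and MHC class I lists. Vim, an intermediate filament protein, had 25, 26.7 and 35.2 CPM in Sham Mef2c and 24.1, 116 and 185 CPM in Sham Gfp (-2.02, SE 0.44, adjusted p = 0.00300). The Sham Gfp value of 24.1 belongs to library 3, the library that lay between the groups. Osmr, the oncostatin M receptor, fell by 1.85 (SE 0.34) and Gfap by 1.87 (SE 0.43). Of 15 homeostatic astrocyte genes 2 fell (13.3%, against 7.93% of all genes). These were Aqp4, the water channel, by 0.64 (SE 0.17) and Aldh1l1, a folate enzyme, by 0.43 (SE 0.09), and the list median was 0.06. The call of Aqp4 ended with the septal term (adjusted p = 0.066) and without Sham Mef2c libraries 2 and 5 (0.103), which left 1 gene of the list. The glutamate transporter Slc1a2 had 0.06 (SE 0.11) and the gap junction gene Gja1 0.00 (SE 0.05), neither past the test.

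Among markers of the other cell types listed, 1 precursor gene and 1 endothelial gene passed. None of 15 myelin genes passed with edgeR, nor did any have an unadjusted p under 0.05 (median 0.05), and Mbp had a log2 fold change of 0.09 (SE 0.15). Of 10 oligodendrocyte precursor genes 1 fell (10%), and of 15 endothelial genes 1 fell (6.67%), beside 7.93% of all genes, each a count that was 0 without some single libraries: Sham Gfp library 5 for both, and for the precursors also Sham Mef2c libraries 2, 4, 5 and 6 and Sham Gfp libraries 1 and 4. The endothelial count was 2 without Sham Mef2c library 1. None of 14 mural and fibroblast genes, 11 choroid plexus genes and 4 tested blood cell genes passed with edgeR, with medians of 0.16, 0.27 and 0.25, and 0, 0 and 1 had an unadjusted p under 0.05. Ttr, the choroid plexus transthyretin, had 0.333, 4 and 50.3 CPM in Sham Mef2c and 0.575, 2.92 and 7.65 CPM in Sham Gfp.

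Housekeeping systems moved by small amounts. Of 44 cytosolic ribosomal protein genes 15 fell (34.1%, against 7.93% of all genes) and none rose, and the list median was -0.16. The count was 23 without Sham Gfp library 3, and 8 or 9 without Sham Mef2c library 3 or 5 or Sham Gfp library 2 or 5. Rps9 had 118, 121 and 130 CPM in Sham Mef2c and 129, 155 and 167 CPM in Sham Gfp (-0.31, SE 0.07, adjusted p = 0.00264). Of 19 endoplasmic reticulum chaperone and stress genes 6 fell (31.6%), and 3 did without Sham Mef2c library 5 or Sham Gfp library 2 or 6. Atf3, a stress transcription factor, had 0.415, 0.897 and 1.23 CPM against 1.33, 3.99 and 6.43 CPM (-2.15, SE 0.47), whereas the chaperone Hspa5 had -0.01 (SE 0.07). Of 19 p53 target genes 6 fell (31.6%), among them Eda2r, a TNF receptor relative, by 1.79 (SE 0.45). The count was 2 or 3 without Sham Mef2c library 2 or 5 or Sham Gfp library 2 or 5. Of 17 glucocorticoid response genes 1 fell (5.88%, a smaller share than the 7.93% of all genes). None did without any of Sham Mef2c libraries 2, 4 and 5 and Sham Gfp libraries 1, 2, 5 and 6.

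The injured mice gave a second set of libraries with the same vectors. Between SNI Mef2c and SNI Gfp 1 gene passed (0.00421%), and it was Mef2c, with means of 611 CPM and 168 CPM. Of the 1882 genes that fell in sham mice 93.1% had a log2 fold change below 0 in injured mice, with a median of -0.47, compared with 50.2% of all tested genes. Of the 351 that rose 64.7% lay above 0, with a median of 0.02, compared with 49.8% of all. In injured mice Ifit3 had -2.09 on the log2 scale (SE 0.47), against -3.57 (SE 0.49) in sham mice, and Iigp1 had -4.79 (SE 1.01) and -6.44 (SE 1.05). Nyap2 had 0.07 (SE 0.06) in injured and 0.34 (SE 0.06) in sham mice, Ergic1 had 0.01 (SE 0.04) and 0.20 (SE 0.04), and Amer3 had 0.14 (SE 0.04) and 0.20 (SE 0.04).

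The difference between the injured and the sham effect of the vector was tested as an interaction. No gene passed with edgeR (smallest adjusted p 0.313), while 3528 genes (14.9%) had an unadjusted p under 0.05, DESeq2 called 1 gene and limma-voom called 4074. Among the rises, those with the smallest interaction p were Kcnk12 (unadjusted p = 0.000183), Ube2d2a (0.00099), Syn3 (0.0012), Cables1 (0.00121) and Dcaf12l2 (0.00157), predicted genes left out. Their log2 fold changes in injured mice were -0.21 (SE 0.09) for Kcnk12, -0.05 (SE 0.04) for Ube2d2a, -0.13 (SE 0.07) for Syn3, -0.19 (SE 0.12) for Cables1 and -0.38 (SE 0.20) for Dcaf12l2. These genes were chosen for their difference between injured and sham mice, so their signs are a description, and none of the differences passed after adjustment.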

How the data were processed

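The authors deposited raw counts per gene, made with featureCounts on mm10 per the submitters' processing notes; which aligner and annotation were used is not given in the sources used here. Of 55401 gene IDs, 55141 matched GENCODE M21 without their version. A gene lying inside another never had more counts than the outer gene (877 of 877 pairs on the same strand and 1300 of 1300 on opposite strands), so reads were counted over whole spans without strand, and genes overlapping a more highly counted one are called uncertain.

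The counts were tested with edgeR 4.0.16 in R 4.3.3: filterByExpr with groups, TMM scaling, a robust quasi-likelihood fit to all 24 libraries (20 residual degrees of freedom), Benjamini-Hochberg adjustment over 23738 genes and a threshold of 0.05. CPM use the TMM scaling, and list sums add CPM. Mef2c was also tested by exact two-sided permutation of mean log2 CPM without a prior count. List means of log2 CPM and the principal components used a prior count of 2. Over the 30 within-group pairs of libraries, chi-square per degree of freedom was 5.9 or more, so none was a copy.

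Named genes are the MEF2 family, the 15 largest rises, the 15 rises of smallest p, the 10 largest falls and the 10 falls of smallest p (at least 1 CPM, not predicted), members of 56 gene lists, and the 5 rises of smallest interaction p. The comparison, the lists and the rule were chosen with earlier results of these data known. Some genes stand in more than 1 list. Alternatives were RLE or library size scaling, other filters, DESeq2 1.42.0, limma-voom (limma 3.58.1), the sham groups alone, a replicate block, marker covariates and leaving out libraries.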

Additional observations from a re-analysis of the deposited data

Results flagged for a closer look

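In each group of 6 libraries, a library was singled out where its gap to the nearest other library took up more of the group's range than Dixon's 95% critical value. Of 362 groups of values examined, 20 had such a library, and chance gives about 1 in 20. Sham Mef2c library 6 was the highest of its group for neuronal genes: Nrxn3 at 605 CPM (437 to 480 in the other 5), Adgrl3 at 219 CPM (168 to 178), Cntn3 at 66.9 CPM (38.7 to 44.0), Nr4a1 at 83.9 CPM (36.7 to 43.9) and Agbl1 at 2.99 CPM (1.51 to 1.94). Its list means were highest for synaptic adhesion genes, at 7.25 log2 CPM (6.94 to 7.04), and glutamate receptors, at 7.35 log2 CPM (6.92 to 7.06). The same library was highest for microglial and immune genes, with Csf1r at 113 CPM (84.4 to 93.5), Gbp2 at 5.84 CPM (3.75 to 4.33) and Fcgr4 at 0.432 CPM (0.149 to 0.212). Its list means were 4.93 log2 CPM for homeostatic microglia (4.63 to 4.70) and 0.663 log2 CPM for B and plasma cells (-1.80 to -0.977).

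In other Sham Mef2c libraries, Amer3 was highest in library 2 at 35.6 CPM (32.4 to 33.0), Hspa5 in library 4 at 233 CPM (180 to 193) and the list mean of ventral pallidum, thalamus and hypothalamus in library 4 at 3.72 log2 CPM (2.64 to 2.96). Vgf was lowest in library 5, at 206 CPM (231 to 241). Sham Gfp library 3 was lowest for C3, at 10.6 CPM (73.9 to 185), and for the chemokine list mean, at 1.66 log2 CPM (3.24 to 4.11). Jak1 was lowest in Sham Gfp library 4, at 146 CPM (156 to 159), and Ntn3 highest in Sham Gfp library 6, at 12.3 CPM (10.3 to 10.8).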

How the results depend on the processing

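The 351 rises became 132 with library size alone, 135 with no filter on low counts, 569 with DESeq2, 1846 with limma-voom, 177 without Sham Mef2c libraries 2 and 5 (chosen after seeing the data) and 132 to 1323 when single libraries were left out. The 1882 falls stayed within 1.5 times in every alternative. The interaction gave 1 gene with DESeq2 and 4074 with limma-voom. Mef2c had a log2 fold change of 0.52 (edgeR adjusted p = 0.229) and passed in 1 alternative, without libraries 2 and 5 (0.85, adjusted p = 0.0141). For these shifts the cause was not tested. With the replicate number as a block 190 genes rose and 1745 fell. Same-numbered libraries of the 2 groups deviated with correlations of -0.345 to 0.204, and only replicate 1 correlated best with its own number, so the numbers do not pair the libraries. Of 2983 recomputed values of single genes, 109 lost and 2 gained their call. Among values called in the main fit or the alternative, 0 changed direction. Some genes that were not called did change sign, such as Drd1, at -0.187 to 0.071 when single libraries were left out. Of 2576 recomputed list counts, 235 moved by over 1.5 times, and among the immune lists only the B and plasma cell count did. Where none of a list passed with edgeR, the main fit is meant, and other edgeR settings called members of several of these lists. Precision differed with depth: the median SE was 0.26 under 1 CPM and 0.067 at 100 CPM or more.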
